A study of Mus musculus with 12 samples.

Results

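The proteasome genes described here were the genes of the normalized read count table whose symbols begin with Psma, Psmb, Psmc, Psmd, Psme, Psmf or Psmg and a number, without the immunoproteasome subunits Psmb8, Psmb9 and Psmb10. The symbol rule gave 46 of 21937 genes. Myelin is the multilayered sheath that oligodendrocytes form around axons. It was purified from brains of male c57Bl6/N mice by sucrose density gradient centrifugation, and its RNA was sequenced at 4 ages with 3 libraries each. The ages were postnatal day 18 (P18), postnatal day 75 (P75), 6 months and 24 months. The column labels give wild type for all 12 libraries, and no treatment was given for any age. All 12 libraries came from the same strain and sex. The preparation is a membrane fraction of whole brains and also carries RNA of other brain cells. The study asked whether the mRNA pool of myelin changes from newly formed to mature and aged myelin. For the proteasome genes this becomes the question of which parts of the machine are represented at which age.

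The proteasome is the main protease of the cytosol and the nucleus and breaks down proteins that carry chains of ubiquitin. Its 20S core is a barrel with outer rings of alpha subunits and inner rings of beta subunits, and the beta subunits hold the active sites. The 19S particle caps the barrel, and its ATPases unfold the substrate and thread it into the core, while its non-ATPase subunits receive and remove ubiquitin. Assembly chaperones build the core and the cap and are not part of the finished complex. In oligodendrocytes the proteasome takes part in the turnover of short-lived proteins that control differentiation.

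By role, the 46 genes comprised 7 alpha and 7 beta subunits of the 20S core, 6 ATPases and 11 non-ATPase subunits of the 19S particle, 3 assembly chaperones of the 19S particle, 4 assembly chaperones of the 20S core, 4 activators and 1 inhibitor. The other 3 matched by symbol only. Psma8 is an alpha subunit of the testis, Psmb11 a beta subunit of the thymus, and Psmc3ip a recombination factor that is no part of the proteasome. Psma8 was between 1.78 and 10.7 normalized read counts in the 12 libraries, under the minimum mean of 10, and was not tested. Psmb11 was between 9.04 and 18.04, and Psmc3ip between 45.1 and 80.7, and neither was called changed in any comparison. The alpha and beta subunits of testis and thymus were thus close to 0 in myelin, and the other 43 genes carried the proteasome signal.

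Values are normalized read counts, that is reads on a gene divided by a size factor of the library. The libraries held 20299052 to 27214385 reads on genes, and Pearson's r between replicates was 0.986 to 0.995 over log2 values. Mbp, the gene of myelin basic protein, took 9.47% to 20.8% of the reads at P18 and 4.76% to 8.48% later, and all 8 myelin markers were detected. Ages were compared with limma on log2(normalized read count + 1) for 14634 genes with a mean of at least 10, among them 45 of the 46 proteasome genes. A gene was called higher or lower at a Benjamini-Hochberg adjusted p under 0.1 over all genes tested. The labels do not say which mouse a library came from, and separate animals are stated in the study for the 6-month libraries, so for the other ages the errors may be technical in part. As an alternative chosen after the data had been seen, called the length adjustment below, each library was adjusted by a curve on annotated transcript length. Because the RNA is a bulk preparation, fewer cells of a type and less RNA per cell cannot be told apart. The labels give no preparation or sequencing batch, and an effect of such a batch cannot be told apart from age.

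The main change of the proteasome genes fell between P75 and 6 months. In this step 30 of the 45 tested genes fell and 6 rose, against a background of 29.4% of all tested genes lower and 31.2% higher, 60.6% in either direction. The median log2 change was -0.44 over the proteasome genes and 0.01 over all tested genes. From P18 to P75, 11 fell and 1 rose, with 22.9% of all genes lower, 25.9% higher and 48.8% in either direction, and from 6 to 24 months 7 fell and 2 rose, with 12.7% lower, 16.6% higher and 29.3% in either direction. Over the 3 consecutive steps, 39 of the 45 genes were called at least once, as were 81.8% of all tested genes. The most frequent course was a fall at the middle step alone, seen in 21 genes and in 12.2% of all tested genes. Another 6 genes fell at the first and the middle step (4.77% of all tested genes), and 4 genes fell, rose and fell again (5.29%). The genes called in no step were Psmb11, Psmc1, Psmc2, Psmc3ip, Psmd14 and Psmf1.

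**Figure D1:**
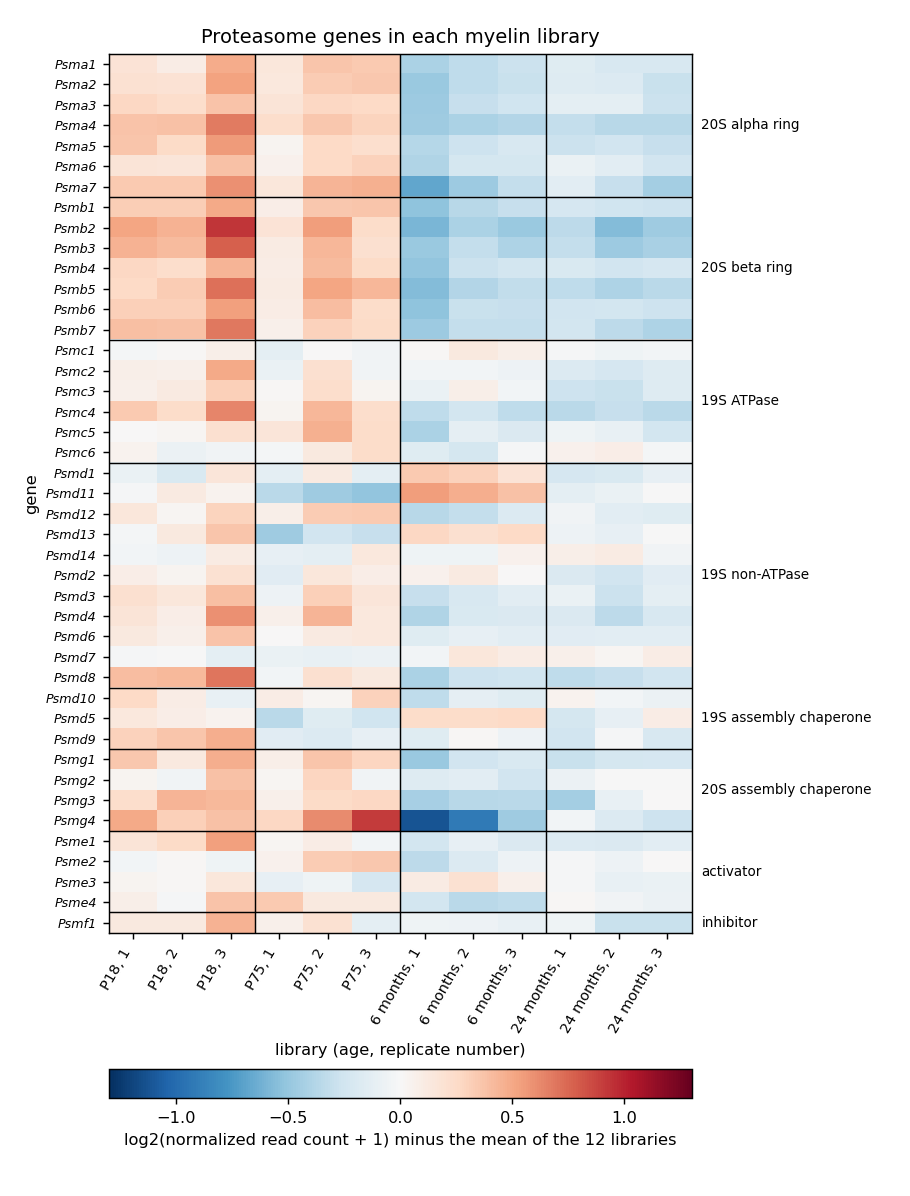
Each row is 1 of the 43 proteasome genes other than Psma8, Psmb11 and Psmc3ip, each column 1 of the 12 libraries, and the colour is log2(normalized read count + 1) minus the mean of the gene over the libraries. The 20S core rows turn from red at P18 and P75 to blue at 6 and 24 months, while the means of Psmd11, Psmd13 and Psmd5 are lowest at P75 and highest at 6 months.

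The 20S core as a whole was lower at 6 and 24 months than at P18 and P75. All 14 core subunits fell from P75 to 6 months, with a median log2 change of -0.63 and a range from -0.83 to -0.46, and from 6 to 24 months limma called 0 of the 14, where the median was 0.12. At that step 0 of the 14 had an unadjusted p under 0.05, and edgeR and DESeq2 on the recovered reads called 0 as well. With quantile normalization 1 was called higher, Psma3. After the length adjustment Psmb3 was called lower (-0.29, adjusted p = 0.064), where 13.2% of all genes were lower and 12.6% higher. In that fit 12 of the 14 changes had the opposite sign and the median was -0.09. The summed normalized read count of the 14 genes was 65636, 64709 and 78659 in the P18 libraries. It was 57415, 68205 and 65342 in those of P75, 37568, 42057 and 42989 in those of 6 months, and 45625, 43747 and 42599 in those of 24 months. Every library at 6 and 24 months was below every library at P18 and P75. All 14 also fell in the comparison of P18 with 24 months, where 34.3% of all genes were lower, and in that of P75 with 24 months, where 26.1% were lower. These comparisons share libraries with the consecutive steps and are not independent of them.

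The 3 catalytic subunits followed this course. Psmb5 carries the chymotrypsin-like activity, lies in mm9 at chr14:55232644-55236851 on the minus strand, and has 4 exons. Its normalized read count was 3454, 3644 and 4773 at P18, 3125, 4136 and 3902 at P75, 1959, 2223 and 2313 at 6 months, and 2300.3, 2186 and 2263 at 24 months. All 6 later libraries were lower than the 6 earlier ones. From P75 to 6 months Psmb5 fell by 41.5% (log2 change -0.77 ± 0.12 SE, adjusted p = 7.3e-05, limma), and from 6 to 24 months its log2 change was 0.06 with a 95% confidence interval of -0.20 to 0.32.

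Psmb6, the caspase-like subunit (chr11:70338869-70341360, plus strand), had normalized read counts of 4189.9, 4211 and 4911 at P18, 3609, 4487 and 3983 at P75, 2354, 2764 and 2745 at 6 months, and 2845, 2859.8 and 2800.1 at 24 months. The libraries of P18 and P75 did not overlap those of 6 and 24 months, and from P75 to 6 months Psmb6 fell by 34.8% (log2 change -0.62 ± 0.10 SE, adjusted p = 7.5e-05). Psmb7, the trypsin-like subunit (chr2:38443556-38499607, minus strand), was at 7241, 7216 and 8895 at P18, 5779, 6792 and 6582 at P75, 3972, 4449 and 4463 at 6 months, and 4684, 4358 and 4195 at 24 months. Psmb7 had already been called lower at P75 (log2 change -0.28 ± 0.10 SE, adjusted p = 0.034), a call that was lost with the same total for every library (-0.16, adjusted p = 0.36). From P75 to 6 months it fell by 32.7% (log2 change -0.57 ± 0.10 SE, adjusted p = 0.00020). Exons of 10 of the 46 proteasome genes overlap exons of another annotated gene. Among these, exons of Psmb7 overlap exons of Nek6 and those of Psmb5 overlap Mir686. Whether reads were counted by strand is not given in the sources used here.

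The largest falls of the core were those of Psma7, Psmb2 and Psmb5. Psma7, an alpha ring subunit (chr2:179771078-179777138, minus strand), was at 4534, 4515 and 5389 at P18, 3956, 4862 and 4924 at P75, 2244, 2585 and 2879 at 6 months, and 3262, 2914 and 2637 at 24 months. It fell by 43.9% from P75 to 6 months (log2 change -0.83 ± 0.12 SE, adjusted p = 2.4e-05). Psmb2, a beta ring subunit without an active site (chr4:126354874-126386958, plus strand), had values of 3398, 3238 and 4535 at P18, 2682, 3457 and 2806 at P75, 1578, 1787 and 1697 at 6 months, and 1878, 1603 and 1721 at 24 months. It was called lower at both early steps, and between P18 and 24 months it fell by 53.0% (log2 change -1.09 ± 0.12 SE, adjusted p = 1.1e-06), the largest fall of a proteasome gene in that comparison. The smallest fall of the core from P75 to 6 months was that of Psma5, with a log2 change of -0.46 (adjusted p = 0.00058). This order did not hold with the length adjustment, in which Psma7, Psmb2 and Psmb5 had log2 changes of -0.31, -0.25 and -0.22 (adjusted p = 0.0089, 0.09 and 0.095) and the largest falls of the core were those of Psma2 (-0.71) and Psma3 (-0.67). The adjusted values rest on 1 annotated transcript per gene, which may not be the one in myelin.

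**Figure D2:**
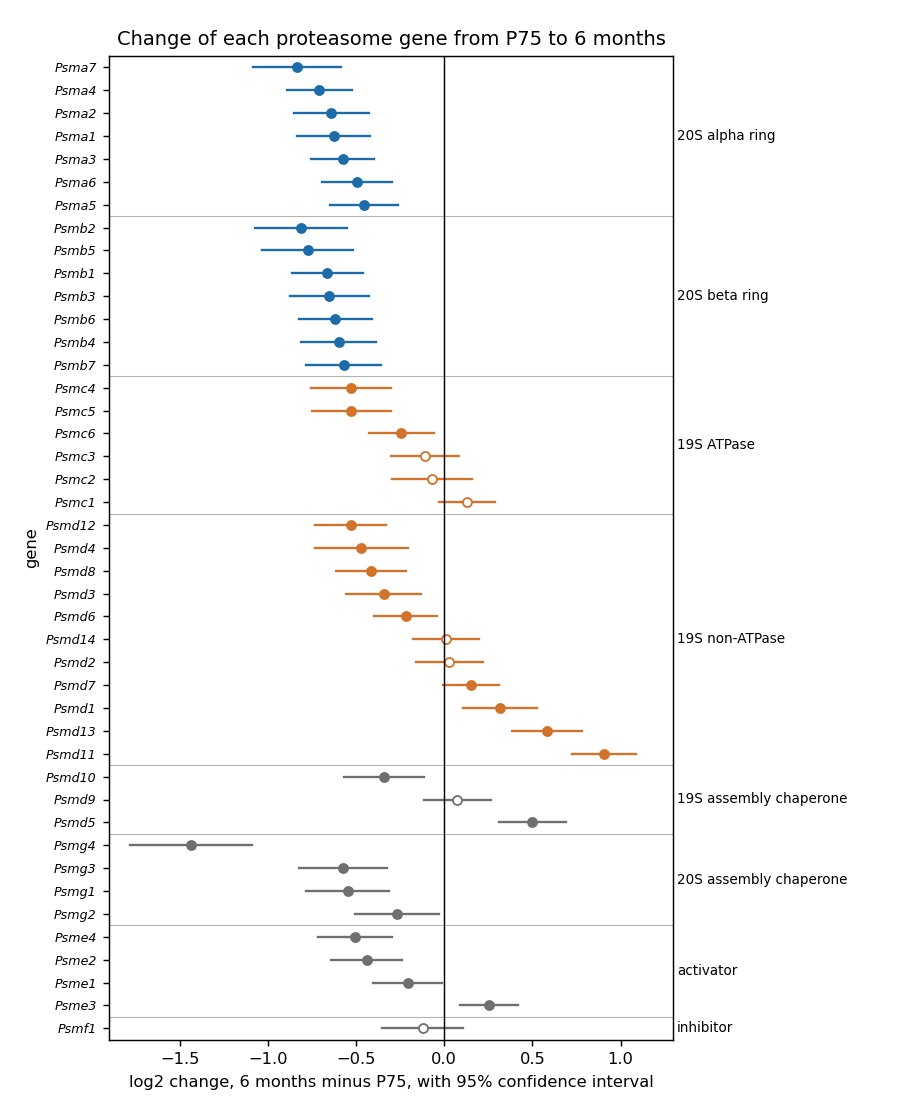
Points are log2 changes of 43 proteasome genes from P75 to 6 months by role, bars their 95% confidence intervals, filled points those called changed and open points those not called, in blue for the 20S core, orange for the 19S particle and grey for the others. All 14 core points lie between -0.83 and -0.46, whereas those of the 19S particle reach from -0.53 to 0.91.

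The 19S particle did not move as a block. Its 17 subunits here are those of the symbol rule. The cap subunits Shfm1 and Adrm1 lie outside the rule, fell from P75 to 6 months and are described further below. From P75 to 6 months 8 of the 17 fell, 4 rose and 5 were not called, with a median log2 change of -0.11, where 29.4% of all tested genes were lower and 31.2% higher. Adjusted for length, 6 fell and 6 rose, with 28.6% and 29.3% of all genes. Among the ATPases, which form the ring that pulls the substrate into the core, Psmc4 (log2 change -0.53), Psmc5 (-0.53) and Psmc6 (-0.24) fell. Psmc1, Psmc2 and Psmc3 were not called, with log2 changes of 0.13, -0.07 and -0.11. Among the non-ATPase subunits, Psmd12 (-0.53), Psmd4 (-0.47), Psmd8 (-0.41), Psmd3 (-0.34) and Psmd6 (-0.22) fell. Psmd4 is a receptor for ubiquitin chains, and the others are subunits of the lid. Psmd14, the lid enzyme that removes ubiquitin from the substrate, had a log2 change of 0.01 with a 95% confidence interval of -0.18 to 0.20, and Psmd2, a large scaffold subunit, one of 0.03 with an interval of -0.16 to 0.22. In the length-adjusted fit Psmd4 (-0.18, adjusted p = 0.20) and Psmd6 (0.02, adjusted p = 0.84) were no longer called, and Psmc1 (0.30, adjusted p = 0.0011) and Psmd14 (0.18, adjusted p = 0.094) were called higher.

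The 4 subunits that rose at this step were Psmd11, Psmd13, Psmd1 and Psmd7. Psmd11, a lid subunit that helps to hold the cap on the core (chr11:80242117-80286750, plus strand, 15 exons), was at 537, 589 and 562 at P18, 427, 396 and 381 at P75, 795, 755 and 710.4 at 6 months, and 498, 512 and 542 at 24 months. The libraries at P75 were the lowest and those at 6 months the highest, with no overlap between consecutive ages. It fell by 28.7% from P18 to P75 (log2 change -0.49 ± 0.09 SE, adjusted p = 0.00033), rose by 87.6% to 6 months (0.91 ± 0.09 SE, adjusted p = 7.5e-07) and fell by 31.2% to 24 months (-0.54 ± 0.09 SE, adjusted p = 0.0012).

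Psmd13, another lid subunit (chr7:148067867-148084542, plus strand), went the same way. Its values were 1579, 1760.4 and 2067 at P18, 1164, 1354 and 1303 at P75, 1938, 1855 and 1923 at 6 months, and 1535, 1496 and 1600.5 at 24 months. Its log2 changes over the 3 steps were -0.49 (adjusted p = 0.00065), 0.58 (adjusted p = 9.5e-05) and -0.30 (adjusted p = 0.035), each with an SE of 0.09. Its exons overlap those of Sirt3, so part of its reads may belong to that gene.

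Psmd1, the largest scaffold subunit of the cap (chr1:87960962-88059363, plus strand), was at 2706, 2504 and 3210.2 at P18, 2635, 3115 and 2632 at P75, 3639.7, 3539.8 and 3247 at 6 months, and 2477, 2513 and 2668 at 24 months. Its exons overlap those of Armc9 and Htr2b. The 6-month libraries stood above those of all other ages. It rose by 24.6% from P75 to 6 months (log2 change 0.32 ± 0.10 SE, adjusted p = 0.013) and fell by 26.5% to 24 months (-0.44 ± 0.10 SE, adjusted p = 0.0074). Psmd7, the partner of Psmd14 in the lid, rose by a log2 change of 0.15 (adjusted p = 0.098), just inside the threshold. It was no longer called with a replicate block (adjusted p = 0.13) or when any of 10 of the 12 libraries was left out, those of other ages included. Psmc6 lost its call without replicate 2 of 6 months (adjusted p = 0.11) or replicate 3 of P75 (adjusted p = 0.12), and Psmd6 without replicate 3 of P75 (adjusted p = 0.11). From 6 to 24 months Psmd1, Psmd2, Psmd11, Psmd13 and Psmc3 fell and the other 12 were not called, with a median of -0.01. At this step 12.7% of all tested genes were lower, 16.6% higher and 29.3% called in either direction. Of the subunits that fell, Psmd13 lost its call without replicate 1 of 6 months (adjusted p = 0.10) or replicate 2 of 24 months (adjusted p = 0.12). Psmd2 lost its call when any of 4 libraries was left out, and Psmc3 when any of 5 was (adjusted p between 0.11 and 0.25).

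The sums of core and cap transcripts were compared next. The 17 genes of the 19S particle summed to 53709, 52808 and 62067 at P18, 49208, 58109 and 54006 at P75, 46427, 49298 and 48611 at 6 months, and 46377, 45314 and 45856 at 24 months. The ratio of the 20S to the 19S sum was 1.24 ± 0.0252 (SD, n = 3) at P18 and 1.18 ± 0.0231 at P75. It was 0.849 ± 0.0378 at 6 months and 0.959 ± 0.0279 at 24 months. The ratio was between 1.17 and 1.27 in the 6 young libraries and between 0.809 and 0.984 in the 6 older ones, with no overlap between any 2 of the 4 ages. The closest libraries of P18 and P75 were at 1.22 and 1.21. These sums weight each gene by its read count, are not numbers of molecules and were not adjusted for length. The 19S sum leaves out the cap subunits Shfm1 and Adrm1, whose symbols lie outside the rule. From P75 to 6 months the mean of Shfm1 went from 3124 to 1367 and that of Adrm1 from 1979 to 1475. With the length adjustment the median log2 changes of core and cap from P75 to 6 months were -0.24 and -0.04, in place of -0.63 and -0.11.

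**Figure D3:**
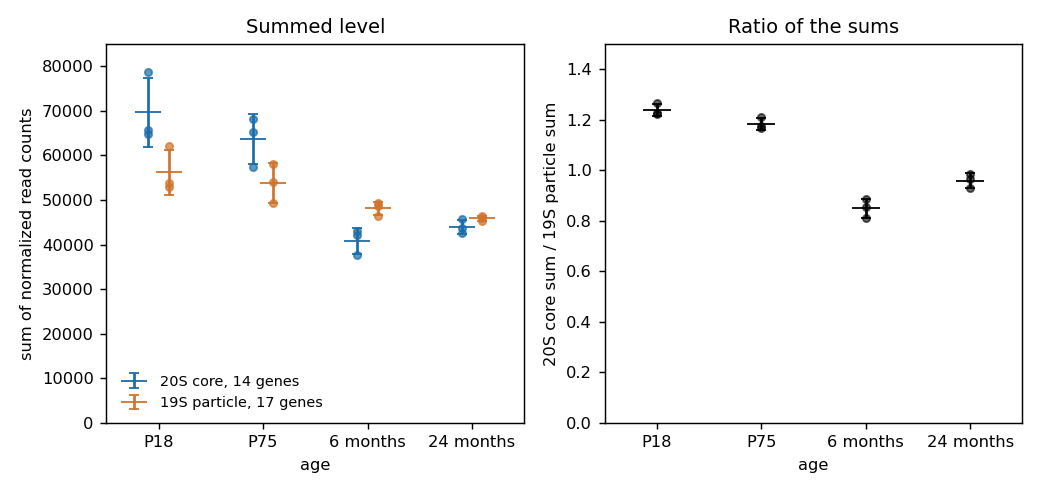
Left, the summed normalized read counts of the 20S core and of the 19S particle by age, and right, the ratio of both sums, with points for libraries, horizontal marks for means and bars for the SD over 3 libraries. The core sum drops from 63654 at P75 to 40872 at 6 months while the 19S sum goes from 53774 to 48112, and the ratio goes from 1.18 to 0.849.

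Transcript length moved with the change from P75 to 6 months across all genes. Among tested genes whose annotated transcript has up to 1000 bases, 72.0% fell and the median log2 change was -0.68, among those of 1000 to 1500 bases 52.5% fell with a median of -0.31, and among those over 4500 bases 17.6% fell with a median of 0.14. The core subunits have short transcripts, with a median of 1101 bases, against 1785 for the 19S particle and 2413 for all genes with a known length. All 8 proteasome genes of up to 1000 bases fell, as did 15 of the 16 of 1000 to 1500 bases. The core subunits with the longest annotated transcripts also fell, Psma2 (2666 bases) by a log2 change of -0.64 and Psma3 (2846 bases) by -0.58, where the median of all genes of 2000 to 3000 bases was 0.04. Per kilobase of these transcripts, Psma2 and Psma3 were the lowest of the alpha ring at 6 months, with 1147 and 1153 normalized read counts. Whether myelin holds these transcripts or shorter ones of the same genes was not tested.

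After each library had been adjusted by a curve on transcript length, 10 of the 14 core subunits were still called lower from P75 to 6 months, with a median of -0.24, against 28.6% of all genes lower in that fit. Psma5, Psma6, Psmb3 and Psmb6 were no longer called, and their log2 changes were -0.14, -0.06, -0.0083 and -0.0027. Over all proteasome genes the adjusted fit gave 19 lower and 8 higher, with 29.3% of all genes higher. In the same fit 12 of the 14 core subunits were lower at 24 months than at P75, with 28.7% of all genes lower, and all 14 were lower than at P18, with 38.2% of all genes lower. Psmd11 (0.82), Psmd13 (0.61) and Psmd5 (0.52) rose from P75 to 6 months with the adjustment as well. The part of transcript length in the fall of the core was not tested beyond this adjustment.

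**Figure D4:**
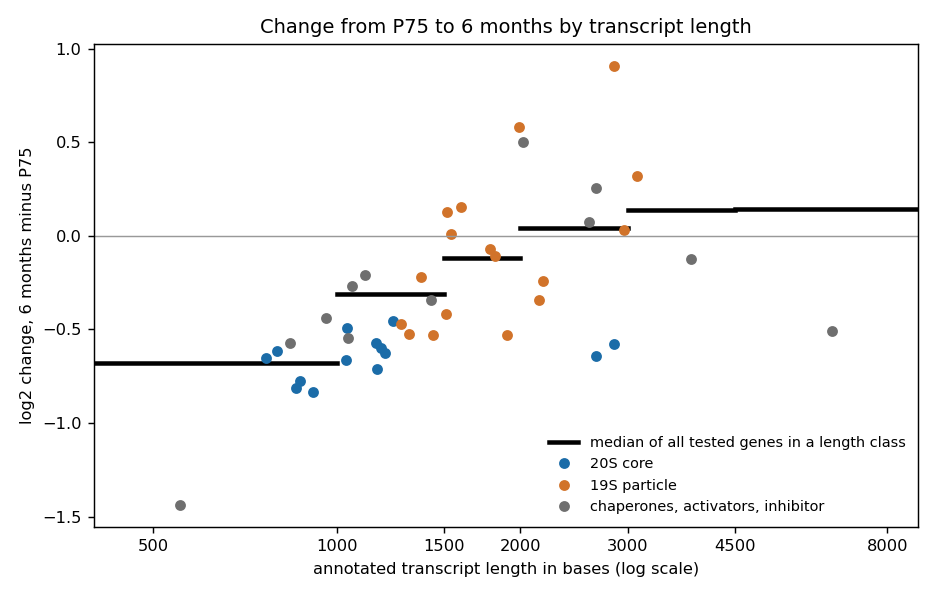
Points are 43 proteasome genes, with annotated transcript length in bases on a log axis and the log2 change from P75 to 6 months, and black bars are the medians of all tested genes in 6 length classes. Most core genes (blue) lie between 766 and 1239 bases, where the median of all genes is -0.68 or -0.31, and the core genes Psma2 and Psma3 lie at -0.64 and -0.58 where that median is 0.04.

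Marker genes of other cells moved at the same step, where 29.4% of all tested genes were lower and 31.2% higher. From P75 to 6 months 5 of 8 microglial markers rose and 1 fell, 4 of 8 astrocytic markers rose and 1 fell, 3 of 8 neuronal markers rose and 3 fell, 2 of 3 endothelial and 2 of 3 oligodendrocyte precursor markers rose, and 2 of 8 myelin markers rose. The median log2 changes were 0.46 for microglia, 0.29 for astrocytes, 0.19 for neurons, 0.67 for endothelium, 0.30 for precursors and 0.19 for myelin. The summed level of the neuronal markers was 207177 to 237317 at P75 and 183070.4 to 188765 at 6 months, that of the astrocytic markers 28264 to 34546 and 40056 to 44438, that of the microglial markers 2911 to 3366 and 3921 to 4626, that of the endothelial markers 206 to 248 and 250.2 to 272, that of the precursor markers 1063 to 1157 and 1317 to 1597, and that of the myelin markers 1273763 to 1847052 and 1356723 to 2370087. The myelin sum is mostly Mbp. The most abundant gene of the neuronal sum is Snap25, which fell (-0.68). Without Snap25 the neuronal sum was 76681.5 to 87143 at P75 and 94575.8 to 101708 at 6 months. No marker of the microglial, astrocytic, neuronal and myelin lists was at 0 in all libraries of either age. Their part in the change of the proteasome genes was not tested.

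The assembly chaperones of the core fell at the same step, where 29.4% of all tested genes were lower and 31.2% higher. Their annotated transcripts have 554 to 1059 bases. Of all tested genes of up to 1000 bases 72.0% fell, and of those of 1000 to 1500 bases 52.5%. Psmg1, Psmg2, Psmg3 and Psmg4, which together form the scaffold on which the alpha ring is built, all fell from P75 to 6 months, with log2 changes of -0.55, -0.27, -0.57 and -1.44. Psmg4 had the largest fall of all proteasome genes (chr13:34254833-34270041, plus strand, 554 bases). It was at 435, 384 and 404 at P18, 374, 476 and 583 at P75, 141, 163 and 224 at 6 months, and 301, 274 and 257 at 24 months. The 6-month libraries were the lowest, and the rise to 24 months left it below both young ages. From P75 to 6 months Psmg4 fell by 63.1% (log2 change -1.44 ± 0.16 SE, adjusted p = 3.5e-06), and it rose by 59.7% to 24 months (0.68 ± 0.16 SE, adjusted p = 0.011). Both were smaller with the length adjustment, -0.58 (adjusted p = 0.00066) and 0.29 (adjusted p = 0.095). The other 3 chaperones of the core were not called in that fit, with -0.12 for Psmg1, 0.15 for Psmg2 and 0.0055 for Psmg3. Psmg2 also lost its call without replicate 3 of 6 months (adjusted p = 0.14) or replicate 2 of P75 (adjusted p = 0.24).

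The chaperones of the 19S base behaved differently from each other. Psmd5 (chr2:34707608-34726459, minus strand) was at 902, 875 and 851 at P18, 647, 735 and 689.8 at P75, 969, 972 and 986 at 6 months, and 700.4, 766 and 878 at 24 months. As with Psmd11 and Psmd13, the P75 libraries were lower than those at P18 and 6 months. Its log2 changes were -0.34 (adjusted p = 0.0059), 0.50 (adjusted p = 0.00023) and -0.33 (adjusted p = 0.020), each with an SE of 0.09. Psmd9 was at 739, 774 and 835 at P18, 542, 533 and 557 at P75, 538, 609 and 575 at 6 months, and 506, 594 and 519 at 24 months. Its only change between consecutive ages was the fall from P18 to P75 (log2 change -0.52 ± 0.09 SE, adjusted p = 0.00026), the largest of that step. Psmd10, also known as gankyrin, fell from P75 to 6 months (-0.34, adjusted p = 0.013), a call that was lost with the length adjustment (-0.13, adjusted p = 0.32).

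**Figure D5:**
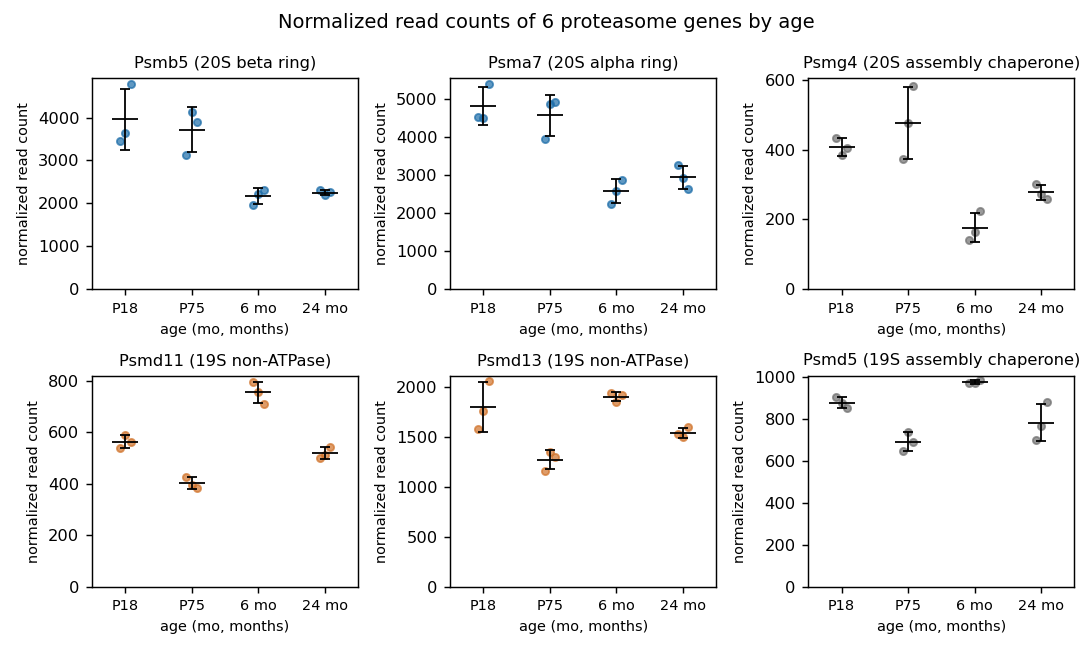
Normalized read counts of Psmb5, Psma7, Psmg4, Psmd11, Psmd13 and Psmd5 by age, with points for libraries, horizontal marks for means and bars for the SD over 3 libraries. The upper 3 genes are lower at 6 and 24 months than at P18 and P75, and the means of the lower 3 are lowest at P75 and highest at 6 months.

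The activators, which open the core in place of the 19S particle, did not move together. Psme1 and Psme2, the subunits of the interferon-inducible activator, both fell from P75 to 6 months, with log2 changes of -0.21 (adjusted p = 0.072) and -0.44 (adjusted p = 0.0011). Psme2 was at 702, 729 and 695 at P18, 753, 910.5 and 921 at P75, 571, 639 and 691 at 6 months, and 716, 688 and 723 at 24 months. It was the only proteasome gene called higher at P75 than at P18 (0.28 ± 0.10 SE, adjusted p = 0.030), whereas Psme1 fell at that step (-0.29, adjusted p = 0.020). With the length adjustment the changes of both from P75 to 6 months were 0.18 and 0.05 and were not called. The rise of Psme2 was not called without replicate 2 or 3 of P75 (adjusted p = 0.11 in both), and the fall of Psme1 from P75 to 6 months not without any of 4 libraries of these ages (adjusted p between 0.12 and 0.20).

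Psme3, the nuclear activator, fell from P18 to P75 (-0.20, adjusted p = 0.054), rose to 6 months (0.25, adjusted p = 0.012) and fell to 24 months (-0.19, adjusted p = 0.096). Psme4, the activator known as PA200, was at 1106, 1042 and 1359 at P18, 1331, 1149 and 1152 at P75, 889, 827 and 835 at 6 months, and 1063, 1022 and 999.7 at 24 months. Its annotated transcript of 6491 bases is the longest of the proteasome genes. It fell to 6 months (-0.51 ± 0.10 SE, adjusted p = 0.00045) and rose to 24 months (0.27 ± 0.10 SE, adjusted p = 0.060). That rise was not called without replicate 2 or 3 of 6 months or replicate 1 or 2 of 24 months (adjusted p between 0.12 and 0.16). Psme3 was not called at the last step without any of 10 libraries, nor at the first without replicate 3 of P18 or replicate 3 of P75. The inhibitor Psmf1 was not called between consecutive ages and was lower at 24 months than at P18 (-0.45, adjusted p = 0.0017) and P75 (-0.26, adjusted p = 0.060).

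The step from P18 to P75 was small for the proteasome genes and depended on the scaling. Besides Psmd9, Psmd11, Psmd13, Psmd5, Psmb7, Psmb2, Psme1 and Psme3, the genes that fell were Psmd8, Psmb3 and Psma5. Psmd8, a lid subunit, was at 3893, 3972 and 4795 at P18, 2886, 3421 and 3240.2 at P75, 2222, 2460.5 and 2469 at 6 months, and 2346, 2401 and 2479.8 at 24 months. It fell at both early steps, by log2 changes of -0.40 ± 0.09 SE (adjusted p = 0.0028) and -0.41 ± 0.09 SE (adjusted p = 0.0016). When each library was scaled to the same total in place of the size factors, 4 proteasome genes rose and 4 fell from P18 to P75, with 32.4% of all genes higher and 12.5% lower, and the median of all genes went from 0.02 to 0.14. At this step 7 of 8 myelin markers fell, with a median log2 change of -1.12, and their part in the changes was not tested. The P18 library of replicate 3 had the highest 20S sum and the lowest Mbp share of its age. Without it 6 of the 45 proteasome genes fell and 2 rose, with 3414 of all 14634 tested genes lower and 3911 higher. The 4 core subunits called lower in the full set, Psma5, Psmb2, Psmb3 and Psmb7, were not called without it (adjusted p between 0.13 and 0.23) or without replicate 1 of P75 (adjusted p between 0.15 and 0.24), and Psmb2 not without replicate 3 of P75 either (adjusted p = 0.14).

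Over the whole span from P18 to 24 months, 31 of the 45 genes fell and 0 rose in the limma fit. DESeq2 gave the same counts and edgeR 30 and 0, and in limma 0 were higher at an unadjusted p under 0.05. The background was 34.3% of all genes lower, 34.7% higher and 69% in either direction. The median log2 change was -0.65 for the 20S core and -0.27 for the 19S particle, where 11 of 17 subunits fell. Psmc1, Psmc6, Psmd1, Psmd7, Psmd11 and Psmd14 of the cap were not called, with log2 changes of -0.06, 0.07, -0.13, 0.11, -0.12 and 0.04. Psmc5 (-0.21) and Psmg4 (-0.56) were called lower but not with the length adjustment (-0.06 and -0.15). From P75 to 24 months 30 genes fell and 2 rose, with 28.8% of all genes higher and 54.9% in either direction. The genes that rose were Psmd11 (0.37, adjusted p = 0.0025) and Psmd13 (0.28, adjusted p = 0.024).

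Levels were compared between genes only per kilobase of annotated transcript, and only among the genes of the symbol rule. At 6 months, the highest means were those of Psmb1 with 4098 ± 323 normalized read counts per kilobase (SD, n = 3), Psmc5 with 3737 ± 399 and Psmb7 with 3702 ± 241. These 3 overlapped in their libraries, and Psmb4 with 3388 and Psmb6 with 3284 overlapped Psmc5 and Psmb7, so their order is not beyond their spread, apart from that of Psmb1 above Psmb4 and Psmb6. The lowest subunit of core and cap was Psmd11 with 265 ± 14.9, also at its peak age, and at P75 it stood at 141. The assembly chaperones of the rule, with means from 221 for Psmd9 to 483 for Psmd5, lay below every subunit of core and cap in the rule other than Psmd11. Pomp, a core chaperone outside the rule, was not part of this comparison. One transcript stands for each gene in this measure, and a gene that uses another isoform in myelin would be placed too high or too low.

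Genes of the pathway that the symbol rule did not take in were read from lists. The immunoproteasome subunits replace the 3 catalytic subunits after interferon. Psmb8 was at 53.6, 66.6 and 58.4 normalized read counts at 6 months and 128, 128 and 117 at 24 months, and rose by a log2 change of 1.05 ± 0.16 SE (adjusted p = 0.00080). Psmb9 rose at the same step from 33.3, 24.9 and 22.4 to 55.5, 68.1 and 54.6 (1.13 ± 0.28 SE, adjusted p = 0.012). Psmb10 fell with the core from P75 to 6 months (-0.83, adjusted p = 3.2e-06), from 1492 ± 103 to 840.3 ± 96.3 (SD, n = 3). Between 6 and 24 months 3 of 8 microglial markers rose and 0 fell in limma, their summed level going from 3921 to 4626 at 6 months to 4498 to 5007 at 24 months, and 2 of 8 astrocytic markers rose. At that step 16.6% of all genes rose, and the part of other cells in the rise of Psmb8 and Psmb9 was not tested. In reads, Psmb8 and Psmb9 had between 15 and 129 per library, so their values carry a larger counting error than those of the constitutive subunits.

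The next list held 11 genes, the cap subunits Shfm1 and Adrm1 and factors that bind or assemble the proteasome. Of these, 8 fell and 1 rose from P75 to 6 months, with 29.4% and 31.2% of all tested genes. Those that fell were Shfm1, a small lid subunit (-1.20), Zfand5 (-0.92), Pomp, a chaperone of the maturing core (-0.84), Txnl1 (-0.77), the deubiquitinase Uchl5 (-0.74), Akirin2, which carries the proteasome into the nucleus (-0.51), the ubiquitin receptor Adrm1 (-0.42) and AI314180 (-0.23). Usp14, a deubiquitinase of the cap, rose (0.47, adjusted p = 0.00032). Fbxo7 and Ube3c were not called, at 0.07 and -0.14. From 6 to 24 months Shfm1 (0.45), Uchl5 (0.37) and Txnl1 (0.25) rose and the other 8 were not called. At this step 16.6% of all tested genes were higher, 12.7% lower and 29.3% called in either direction. With the length adjustment the fall of Pomp (-0.17, adjusted p = 0.10) and the rises of Shfm1 (0.02) and Txnl1 (0.23) were not called.

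Genes of ubiquitin and its activation did not move one way. The ubiquitin fusion gene Rps27a fell from P75 to 6 months (-0.89), though not with the length adjustment (-0.27, adjusted p = 0.16), and the polyubiquitin gene Ubb (-0.15) was not called. Uba1 and Uba6, the enzymes that activate ubiquitin, rose by 0.89 (adjusted p = 9.7e-06) and 0.88 (adjusted p = 7e-05) and fell to 24 months by log2 changes of -0.57 and -0.47. Among genes of the p97 unfoldase and the shuttle receptors that hand over substrates, Vcp, which is p97 itself, rose from P75 to 6 months by 0.44, Ubqln1 by 0.36, Ubqln4 by 0.30 and Rad23b by 0.27. Adjusted for length, Ubqln4 (0.17) and Rad23b (0.12) were not called. Ubqln2 fell (-0.26), and Nploc4 (0.13) and Ufd1l (0.16) were not called. Rad23b, Vcp, Ubqln1 and Nploc4 fell from 6 to 24 months, and Ubqln2, Ubqln4 and Ufd1l were not called.

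Nfe2l1 encodes the transcription factor known for raising proteasome genes when the proteasome is impaired. Its normalized read count was 3652, 3798 and 3326 at P18, 6587, 5557 and 5289.7 at P75, 9139, 10841 and 8692 at 6 months, and 8869, 9251 and 9573 at 24 months. It rose at both early steps, by log2 changes of 0.69 ± 0.11 SE (adjusted p = 9.6e-05) and 0.72 ± 0.11 SE (adjusted p = 3.6e-05), and its log2 change from 6 to 24 months was -0.04. Among genes known to process its protein, Syvn1 rose (0.30 and 0.50), the protease Ddi2 rose to 6 months from 17.5 to 33.7 normalized read counts (1.01 ± 0.30 SE, adjusted p = 0.0092), and Ngly1 rose and then fell (0.22 and -0.39). Keap1, which restrains the related factor Nfe2l2, rose to 6 months (0.24, and 0.08 with the length adjustment, not called), and Nfe2l2 itself was not called between consecutive ages.

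The element bound by this family of factors was searched as TGACNNNGC on both strands in the 250 bases before each gene's start, since the core genes moved together. RefSeq promoters of build GRCm38.p6 were matched for 38 of the 46 genes. None was matched for Psma8, Psmb1, Psmb2, Psmb7, Psmc3, Psmd3, Psmd7 and Psmg2, so the catalytic subunit Psmb7 was not searched. The letters were found in 5 of the 38 (13.2%) and in 11.5% of all 27025 genes with a promoter, a share near that of all genes. CCAAT was found in 14 of the 38 (36.8%) and in 37.5% of all genes. The 5 stretches are shown because 2 of them lie before catalytic subunits. They run 5′ to 3′ along the gene, and capitals mark the match, which reads GCNNNGTCA where it lies on the opposite strand.
Psmb5, chr14:54618024-54618052, minus strand, match starting 47 bases before the start: cgtgaagttgTGACGTCGCggcgttgcca
Psmb6, chr11:70525338-70525356, plus strand, match starting 9 bases before the start: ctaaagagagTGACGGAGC
Psmd9, chr5:123228149-123228177, plus strand, match starting 31 bases before the start: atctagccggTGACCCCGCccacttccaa
Psmc6, chr14:45329587-45329615, plus strand, match starting 227 bases before the start: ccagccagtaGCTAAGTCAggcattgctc
Psmd12, chr11:107479278-107479299, plus strand, match starting 247 bases before the start: tctGCTGTGTCAcatttgcccc
From P75 to 6 months the log2 changes of these genes were -0.77 for Psmb5, -0.62 for Psmb6, 0.08 for Psmd9, -0.24 for Psmc6 and -0.53 for Psmd12. The match is a description of the letters, and binding of a factor was not measured.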

How the data were processed

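Myelin RNA was sequenced at 4 ages with 3 libraries each. Alignment by the authors to mm9 used TopHat2 (2.0.8 per the submitters' notes), genes were counted with HTSeq 0.5.4p1, and DESeq size factors scaled the libraries. The deposited values are this signal, the normalized read count of each gene and library. Every value came out as a whole number of reads (100%, tolerance 0.1), which gave the depth. Ages were compared with limma 3.58.1 (trend) in R 4.3.3, in 1 fit of all 12 libraries on log2(value + 1), with age alone in the design and a minimum mean of 10. Named genes were Psmb5, Psmb6, Psmb7, the up to 4 largest rises and falls per consecutive step among called genes, the chaperones, activators and inhibitor, and the pathway lists, of which some genes are not reported here. Members and lists were chosen with earlier results of these data known. Transcript lengths and positions came from GENCODE vM1 on NCBIM37 (mm9), using the transcript with the longest coding sequence, known for 96.7% of tested genes. Alternatives were other pseudocounts, filters and scalings, edgeR 4.0.16 and DESeq2 1.42.0 on recovered reads, the replicate block, each library left out and a length adjustment. The procedure was tested on simulated data. Libraries with the same replicate number deviated together between P75 and 6 months (correlations of 0.101 to 0.187 in all 3 pairs), a pairing read from the data and not from the labels, and not between other ages (-0.213 to 0.163, with 1 pair over 0.1). A block fit of P75 and 6 months alone was added for that reason.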

Additional observations from a re-analysis of the deposited data

How the results depend on the processing

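The counts of proteasome genes called changed were within 1.5 times of those reported under the alternatives tried, except from 6 to 24 months, where 9 became 5 with the same total for every library and 5 at a false discovery rate of 0.05. With each library left out, the counts were 8 to 15 from P18 to P75, 33 to 36 from P75 to 6 months, 4 to 9 from 6 to 24 months, 29 to 31 from P18 to 24 months and 27 to 34 from P75 to 24 months. From 6 to 24 months the count was 5 without replicate 1 of 6 months, 5 without replicate 2 of 6 months and 4 without replicate 2 of 24 months. In fits with a replicate block they were 12, 35, 8, 31 and 31 in the 5 comparisons, and this changed none by over 1.5 times. The block ended the calls of Psmd7 from P75 to 6 months, of Psme3 from 6 to 24 months (adjusted p = 0.13 in both) and of Psme1 from P75 to 24 months (0.11) and changed no other call of a proteasome gene. A block fit of P75 and 6 months alone, chosen after seeing the data, gave 36, with no proteasome gene called differently. edgeR gave 13, 36, 8, 30 and 33, and DESeq2 13, 36, 9, 31 and 31.

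Over all 45 tested genes and 5 comparisons, the sign of the change turned in 151 of 5435 refits, among them 37 of 225 with the length adjustment, 29 of 225 with the same total and 74 of 2700 with a library left out. In 6 of the 151 the change had been called, each with the length adjustment, and in 1 the turned change was called, that of Psmb3 from 6 to 24 months with the length adjustment (-0.29). With the length adjustment the changes from P75 to 6 months became 0.021 for Psmd6, 0.15 for Psmg2, 0.0055 for Psmg3, 0.18 for Psme1 and 0.046 for Psme2, those from 6 to 24 months -0.20 for Psmb5, -0.17 for Psmb6 and -0.14 for Psmb7, and that of Psme1 from P75 to 24 months 0.0038. The uncalled change of Psmb5 from P18 to P75 became 0.041 with the same total, and with a library left out it ranged from -0.17 to 0.058, above 0 without replicate 3 of P18 or replicate 1 of P75. That from 6 to 24 months ranged from -0.012 to 0.11, below 0 without replicate 1 of 6 months. The uncalled change of Psmb7 from 6 to 24 months became -0.00043 with the same total and ranged from -0.016 to 0.075 with a library left out, below 0 without replicate 1 of 6 months or replicate 1 of 24 months (-0.0041). A wider count took in the pathway lists as well as the genes of the symbol rule. It held 226 changes of single genes, which are the called ones and those of Psmb5, Psmb6 and Psmb7. The direction and the side of the threshold held in 5152 refits, the call was lost in 311 and the sign changed in 16. The cause was not tested. With 3 libraries per age, an exact test of 3 against 3 cannot go below a p of 0.1.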
